A study of Mus musculus with 4 samples.

Results

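The 10 genes described here encode proteins that choose replication origins and turn them on: 3 subunits of the origin recognition complex (Orc1, Orc2 and Orc6), the kinase Cdc7 with its activator Dbf4, the helicase factor Cdc45, and the 4 GINS subunits (Gins1, Gins2, Gins3 and Gins4). They were taken by name, as every probe set (a group of short probes for one transcript) whose platform annotation gives exactly 1 gene symbol and that symbol is one of the 10. All 10 genes were found, with 19 probe sets, among 18193 genes with such a probe set. The arrays carried total RNA of liver from C57BL/6J mice, taken 48 h after surgery. One group of 2 arrays came from mice after a sham operation, the other 2 from mice after partial hepatectomy, the removal of part of the liver. The design text calls the arrays of a group biological duplicates but does not say whether each array is 1 mouse, and the p-values measure only the spread between such arrays, pooled in part across probe sets. The sources used here do not give the sex and age of the mice, the share of liver removed or any pooling of animals.

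As background, the origin recognition complex binds DNA where replication can begin and, with Cdc6 and Cdt1, loads the ring of Mcm2 to Mcm7. In S phase the Cdc7-Dbf4 kinase phosphorylates this ring, and Cdc45 and GINS then join it to form the active helicase that opens the fork. Most hepatocytes of the adult liver rest outside the cell cycle and re-enter it after partial hepatectomy.

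Most of these transcripts rose by 48 h after hepatectomy. Of the 9 tested genes Gins2 rose most, its mean signal going from 50.3 ± 16.5 after sham surgery to 516 ± 21.0 (SD, n = 2 in each group), and Cdc45, Gins1, Gins3, Cdc7 and Orc6 rose by ratios of group means between 2.60 and 4.47. Dbf4, Gins4 and Orc2 did not pass the test, with ratios of 2.27, 1.58 and 1.41. Orc1 had too low a mean over the 4 arrays to enter the test. In all, 6 of the 9 tested genes (of 10) were called higher and none lower. Among all 12560 genes tested, 3.57% were called higher. By probe set it was 7 of the 16 tested (of 19), where 2.51% of all tested probe sets were called higher. A call is an adjusted p under 0.05 by limma, with Benjamini-Hochberg adjustment over 27022 probe sets.

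Of the 19 probe sets, 16 passed the filter on dim signals and 9 of the 10 genes were tested. One of the 16, a Gins2 probe set, passed only through its high hepatectomy signals, so its entry into the test depended on the group where it was high. It was called, and the other 6 called probe sets pass the filter on their sham signals alone. Both hepatectomy signals exceeded both sham signals at 17 of the 19 probe sets, and the groups overlapped at the other 2. The same order held at 21.5% of all 45037 probe sets on the array. Over the 19 probe sets the median difference on the log2 scale was 1.07, against 0.01 over all probe sets. The tissue was bulk liver, so more cells with these transcripts and more transcript per cell cannot be told apart. With 2 arrays against 2, an exact permutation test of a single value cannot go below p = 0.333, and only the fit across all probe sets gives a smaller p.

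**Figure D1:**
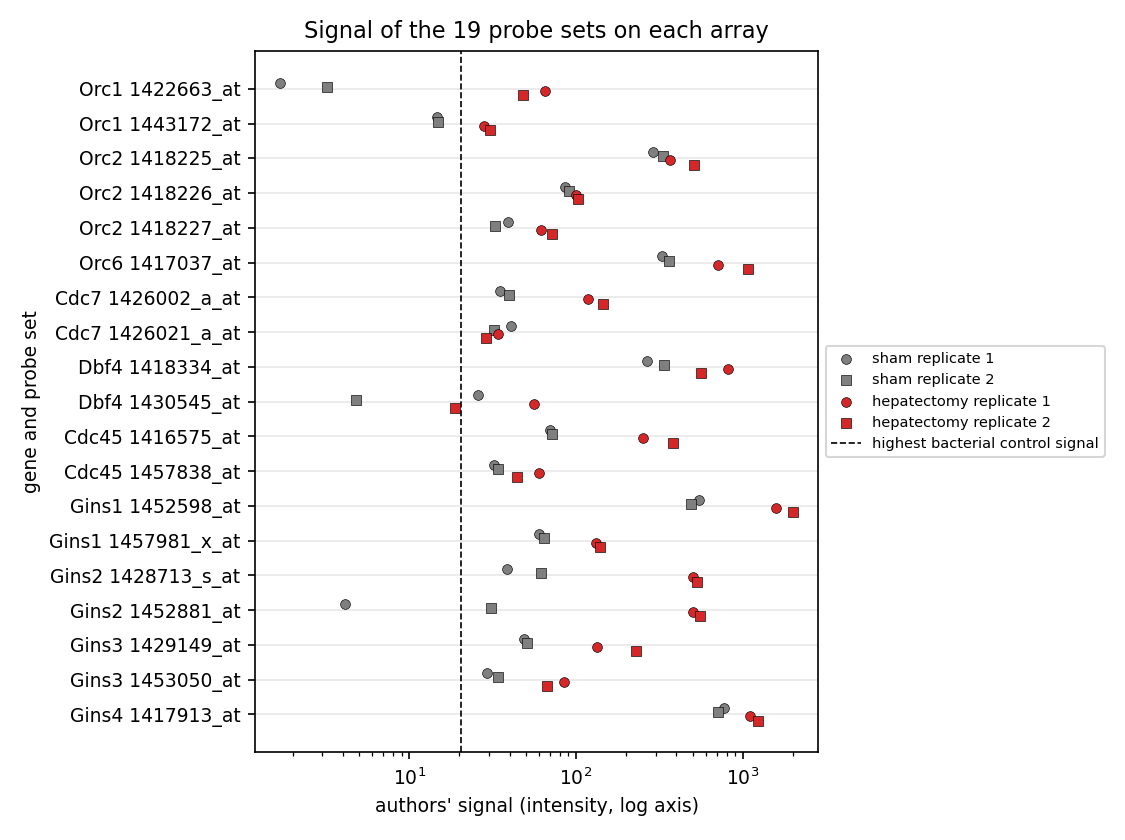
Signals of the 19 probe sets on the 4 arrays (log axis); grey points are sham, red points hepatectomy, circles replicate 1 and squares replicate 2, and the dashed line is the highest bacterial control signal, 20.4. The red points lie to the right of both grey ones in 17 rows, and the groups overlap for Cdc7 1426021_a_at and Dbf4 1430545_at.

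Promoter windows of the genes were searched for the words that E2F and the late cell cycle factors are known to read, as a description of sequence. RefSeq windows on GRCm38.p6, from 250 bases before to 50 after an annotated start, were matched by symbol for 7 of the 10 genes, with 9 windows. The words searched on both strands were the E2F words TTCCCGC or TTCGCGC or TTGCCGC or TTGGCGC, the CHR element TTTGAA or TTCGAA, and the CCAAT box CCAAT. An E2F word stood in windows of 3 of the 7 genes, Orc1, Cdc7 and Gins3. By window it was 4 of 9, against 9.57% of all 32851 windows and 12.1% of the windows of protein-coding genes. A CHR word stood in 4 of the 7 (Cdc7, Dbf4, Cdc45 and Gins3) and 5 of the 9 windows, against 17.6% of protein-coding windows. A CCAAT box stood in 5 of the 7 (Orc1, Orc2, Orc6, Cdc45 and Gins3) and 6 of the 9 windows, against 38.2%. Of 39 other origin genes with a window, from the list described below, 24 held an E2F word, 6 a CHR word and 21 a CCAAT box. In the 9 windows no match of one motif overlapped a match of another. Each match is a string of letters, not a shown binding site.

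For each of the 3 genes with an E2F word, 1 window that holds it is printed 5′ to 3′ on the gene's strand with that word in capitals. A window of Orc2, which holds none, follows. The transcript of Orc2 did not pass the test, but Cdc45 and Orc6 were called and hold none either. Orc1, which holds the word, did not enter the test. Gins3 is at chr8:95633309-95633608 (plus strand), Cdc7 at chr5:106964072-106964371 (plus strand), Orc1 at chr4:108579204-108579503 (plus strand) and Orc2 at chr1:58505060-58505359 (minus strand).
Gins3: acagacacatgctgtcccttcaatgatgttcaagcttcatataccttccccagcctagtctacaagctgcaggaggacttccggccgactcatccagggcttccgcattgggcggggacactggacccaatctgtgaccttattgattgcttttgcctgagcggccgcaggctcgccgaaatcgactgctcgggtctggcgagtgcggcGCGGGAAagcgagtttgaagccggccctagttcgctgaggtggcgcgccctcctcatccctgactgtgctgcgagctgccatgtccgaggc
Cdc7: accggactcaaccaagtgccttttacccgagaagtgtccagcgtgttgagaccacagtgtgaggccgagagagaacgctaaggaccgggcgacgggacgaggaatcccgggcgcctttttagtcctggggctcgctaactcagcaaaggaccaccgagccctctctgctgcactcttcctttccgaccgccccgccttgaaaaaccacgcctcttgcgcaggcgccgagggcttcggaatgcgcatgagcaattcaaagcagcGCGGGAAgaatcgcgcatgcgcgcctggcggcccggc
Orc1: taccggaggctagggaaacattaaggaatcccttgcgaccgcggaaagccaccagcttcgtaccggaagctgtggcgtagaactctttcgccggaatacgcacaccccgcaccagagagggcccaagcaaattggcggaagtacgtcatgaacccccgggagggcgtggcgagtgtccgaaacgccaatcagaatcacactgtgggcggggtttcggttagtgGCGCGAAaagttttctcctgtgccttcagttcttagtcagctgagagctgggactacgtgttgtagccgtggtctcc
Orc2: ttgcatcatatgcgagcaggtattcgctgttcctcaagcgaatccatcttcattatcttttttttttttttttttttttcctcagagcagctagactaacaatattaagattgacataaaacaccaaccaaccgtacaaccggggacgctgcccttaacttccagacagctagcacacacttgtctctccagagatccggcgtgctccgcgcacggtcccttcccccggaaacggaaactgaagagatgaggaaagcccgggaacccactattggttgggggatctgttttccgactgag

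In these windows the E2F word lay on the strand opposite to the gene. It began 41 bases before the annotated start in Gins3, 27 bases before it in Orc1, and at base 14 after it in Cdc7. In Gins3 a CHR word began 28 bases before the start, downstream of the E2F word. The second Cdc7 window overlaps the first and holds the same E2F word and one more, 35 bases before its own start. Of the called genes with a window, Gins3 and Cdc7 held an E2F word and Cdc45 and Orc6 did not; Dbf4 held none either.

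**Figure D2:**
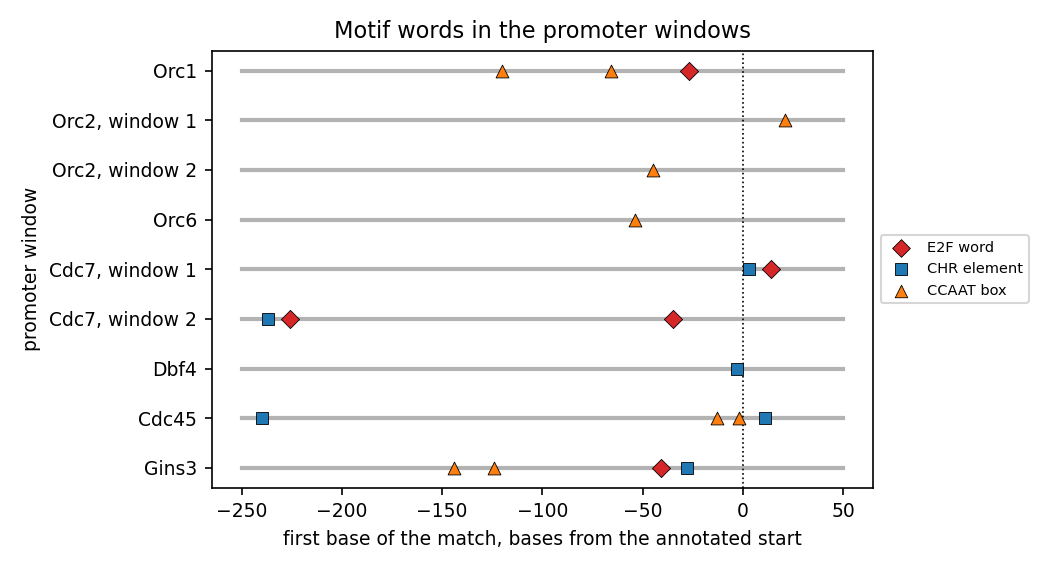
Position of each motif word in the 9 promoter windows, in bases from the annotated start (dotted line); red diamonds are E2F words, blue squares CHR words and orange triangles CCAAT boxes. E2F words appear in the rows of Orc1, Cdc7 and Gins3, each with a match within 50 bases of a start.

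Orc1, the largest subunit and one whose amount is known to change through the cell cycle, had very low sham signals. Probe set 1422663_at gave signals of 1.69 and 3.23 after sham surgery and 65.6 and 47.9 after hepatectomy. Both sham signals lay under 20.4, the highest signal of 27 bacterial control probe sets, and both hepatectomy signals lay above it. With the sham signals set to that control level, the geometric mean of the hepatectomy signals was at least 2.75-fold higher. This is a bound on the group mean and not on each array. The second probe set, 1443172_at, read 14.7 and 14.9 against 28.0 and 30.5, at least 1.43-fold higher by the same bound. Neither entered the test, because the filter removes probe sets with a low mean. In a fit with no filter, where 0.591% of all probe sets were called higher, the log2 differences were 2.56 ± 0.41 (SE; adjusted p = 0.0707) and 0.69 ± 0.40 (adjusted p = 0.607), and neither was called. Probe set 1422663_at passed the filter when a sham array was left out, with no call either way (adjusted p = 0.137 with replicate 1 left out, 0.0980 with replicate 2 left out).

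Orc6, the smallest subunit of the complex, rose. Its single probe set read 325 and 360 after sham surgery and 710 and 1074 after hepatectomy. The lower hepatectomy signal was 1.97 times the higher sham signal, and hepatectomy replicate 2 was the higher of its group. The difference was 1.33 ± 0.25 on the log2 scale (SE; adjusted p = 0.0278). The call was lost on leaving out sham replicate 1 (adjusted p = 0.194) or sham replicate 2 (0.115).

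Orc2, a subunit of the stable core of the complex, was not called at any of its 3 probe sets. The one with the highest mean read 290 and 330 after sham surgery and 365 and 508 after hepatectomy, a difference of 0.47 ± 0.25 (SE; adjusted p = 0.403). The groups did not overlap, but the higher sham and the lower hepatectomy signal were only a ratio of 1.11 apart. The other 2 probe sets differed by 0.18 ± 0.29 and 0.76 ± 0.35 on the log2 scale.

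The 3 remaining core subunits of the complex, which belong to the wider list of origin genes, were not called. Orc3 differed by -0.19 ± 0.24 (SE), Orc4 by -0.31 ± 0.19 and Orc5 by -0.03 ± 0.27, with adjusted p-values of 0.766, 0.478 and 0.973. Orc5 read 425 and 694 after sham surgery and 488 and 579 after hepatectomy, so its groups overlapped. Orc4 read 832 and 794 against 715 and 594, with both hepatectomy signals the lower, while another Orc4 probe set, 1423336_at, differed by 0.44 ± 0.34 with overlapping groups. Orc6 was thus the 1 subunit called among those tested, and the difference in change between subunits was not tested.

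Cdc7, the kinase that phosphorylates the loaded Mcm ring, rose at one probe set and not at the other. Probe set 1426002_a_at read 35.2 and 39.7 after sham surgery and 118 and 145 after hepatectomy. That is a difference of 1.60 ± 0.32 on the log2 scale (SE; adjusted p = 0.0389), with no overlap of the groups. Probe set 1426021_a_at read 40.7 and 32.2 against 33.8 and 28.9, with overlapping groups and a difference of -0.17 ± 0.38 (adjusted p = 0.880). The platform annotation pairs the 2 probe sets with different source transcripts of the gene. With the mean of both, Cdc7 had a value of 0.72 and was not called (adjusted p = 0.268). The call at 1426002_a_at was also lost on leaving out sham replicate 1 (adjusted p = 0.218), sham replicate 2 (0.138) or hepatectomy replicate 2 (0.0667).

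Dbf4, the regulatory subunit without which Cdc7 is inactive, narrowly missed the threshold. Its brighter probe set read 264 and 339 after sham surgery and 809 and 559 after hepatectomy. Here hepatectomy replicate 1 was the higher of its group, unlike at the called probe sets of Orc6 and Cdc7. The difference was 1.15 ± 0.26 (SE; adjusted p = 0.0555). Leaving out 1 array moved it both ways: it was called without hepatectomy replicate 2 (1.41, adjusted p = 0.00714), and not without hepatectomy replicate 1 (0.88, adjusted p = 0.114), sham replicate 1 (0.97, 0.365) or sham replicate 2 (1.32, 0.137). The hepatectomy array kept in that called case, replicate 1, is the one with adrenal and the most fat transcripts described at the end. Whether those transcripts bear on the call was not tested. With all 4 arrays Dbf4 was also called after median centring (adjusted p = 0.0482), with robust eBayes (0.0348) and with the replicate number as a block (0.0101). It was not called under the other alternatives that kept all 4 arrays. A dim probe set, 1430545_at, read 25.7 and 4.78 against 55.6 and 18.9. Its groups overlapped and it did not enter the test.

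Cdc45, which bridges GINS and the Mcm ring in the active helicase, rose from signals of 69.7 and 71.4 after sham surgery to 252 and 379 after hepatectomy. The sham arrays were within a ratio of 1.02 of each other, and hepatectomy replicate 2 was 1.51 times replicate 1. The difference was 2.00 ± 0.30 on the log2 scale (SE; adjusted p = 0.0116). A second, dimmer probe set read 32.1 and 33.8 against 60.3 and 44.4, which did not pass (0.54 ± 0.37, adjusted p = 0.532). Leaving out sham replicate 1 (adjusted p = 0.0758) or sham replicate 2 (0.0579) ended the call at the first.

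Among the GINS subunits, which form a complex with one copy of each, Gins2 showed the largest difference. Probe set 1428713_s_at read 38.7 and 62.0 after sham surgery and 502 and 531 after hepatectomy. The lower hepatectomy signal was 8.09 times the higher sham signal. The log2 difference was 3.18 ± 0.29 (SE; adjusted p = 0.00145). The second probe set, 1452881_at, read 4.14 and 30.8 against 505 and 550 and was also called (4.58 ± 0.50, adjusted p = 0.00288). It is the one that passed the filter only through the hepatectomy arrays, and its sham replicate 1 lay under the bacterial control level.

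Gins1 rose from signals of 547 and 487 after sham surgery to 1590 and 1988 after hepatectomy. The difference was 1.77 ± 0.19 (SE; adjusted p = 0.00288), and the lower hepatectomy signal was 2.91 times the higher sham signal. Its second probe set, 1457981_x_at, whose suffix marks probes that may match other transcripts, read 59.9 and 63.9 against 132 and 140. That ratio of 2.20 came with 1.04 ± 0.30 on the log2 scale and was not called (adjusted p = 0.119).

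Gins3 rose at one of its probe sets. It read 48.8 and 50.8 after sham surgery and 134 and 230 after hepatectomy, a difference of 1.66 ± 0.35 (SE; adjusted p = 0.0437). The hepatectomy arrays differed between themselves by a ratio of 1.72, the widest gap within that group among the called probe sets. It lost the call when sham replicate 1 (adjusted p = 0.217), sham replicate 2 (0.155) or hepatectomy replicate 2 (0.0874) was left out. The other probe set read 29.0 and 33.9 against 84.2 and 66.9 and did not pass (1.07 ± 0.35, adjusted p = 0.176).

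Gins4 had the smallest difference of the 4 subunits. Its single probe set read 770 and 709 after sham surgery and 1100 and 1238 after hepatectomy, a ratio of group means of 1.58. The groups did not overlap and each was tight, yet the difference of 0.65 ± 0.18 (SE) did not pass (adjusted p = 0.105). The adjusted p stayed above the threshold under each alternative tried, between 0.0719 and 0.410. Whether Gins4 changed less than Gins2 was not tested as a difference between genes.

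**Figure D3:**
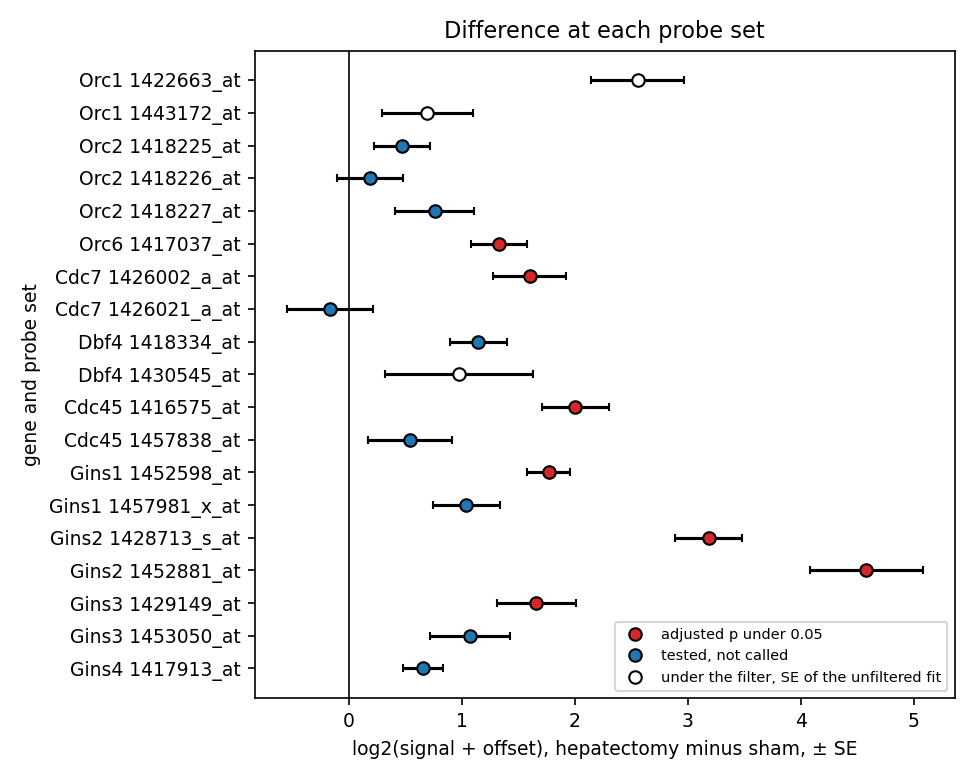
Difference between hepatectomy and sham at each of the 19 probe sets on the log2(signal + offset) scale, with bars of 1 standard error. Red points were called, blue points were tested and not called, and white points lay under the filter. The 2 Gins2 points lie farthest to the right, at 3.18 and 4.58, and the second Cdc7 point lies at -0.17.

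Gins1 and Gins2 were the 2 genes called under every alternative that kept all 4 arrays, with adjusted p-values of at most 0.0491 and 0.0204. For Gins2, the mean of probe sets and the setting without _s_at and _x_at probe sets used 1452881_at. That probe set passed the filter only through its hepatectomy signals. The other 4 called genes lost their calls when either sham array was left out, with no filter and with no mean-variance trend. Only 2 of the 10 genes were therefore called without sham replicate 1 or without sham replicate 2, against 6 without hepatectomy replicate 1 and 5 without hepatectomy replicate 2. Over all settings the adjusted p ran from 0.000416 to 0.0758 for Cdc45, from 0.00128 to 0.194 for Orc6, from 0.00598 to 0.217 for Gins3, from 0.00994 to 0.268 for Cdc7 and from 0.00714 to 0.365 for Dbf4. All 126 values of the 9 tested genes under the alternatives were positive. With no filter, no trend, robust eBayes or the replicate number as a block, the log2 difference cannot change. Those values repeat the main fit. Both hepatectomy signals exceeded both sham signals at every probe set that represented a tested gene. Another offset, leaving out 1 array or leaving out _s_at and _x_at probe sets therefore could not give a negative value. All alternatives reuse the same 4 arrays. Across the array, 341 probe sets were called without sham replicate 1, 479 without sham replicate 2 and 2012 without hepatectomy replicate 2, against 916 with all 4 arrays.

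**Figure D4:**
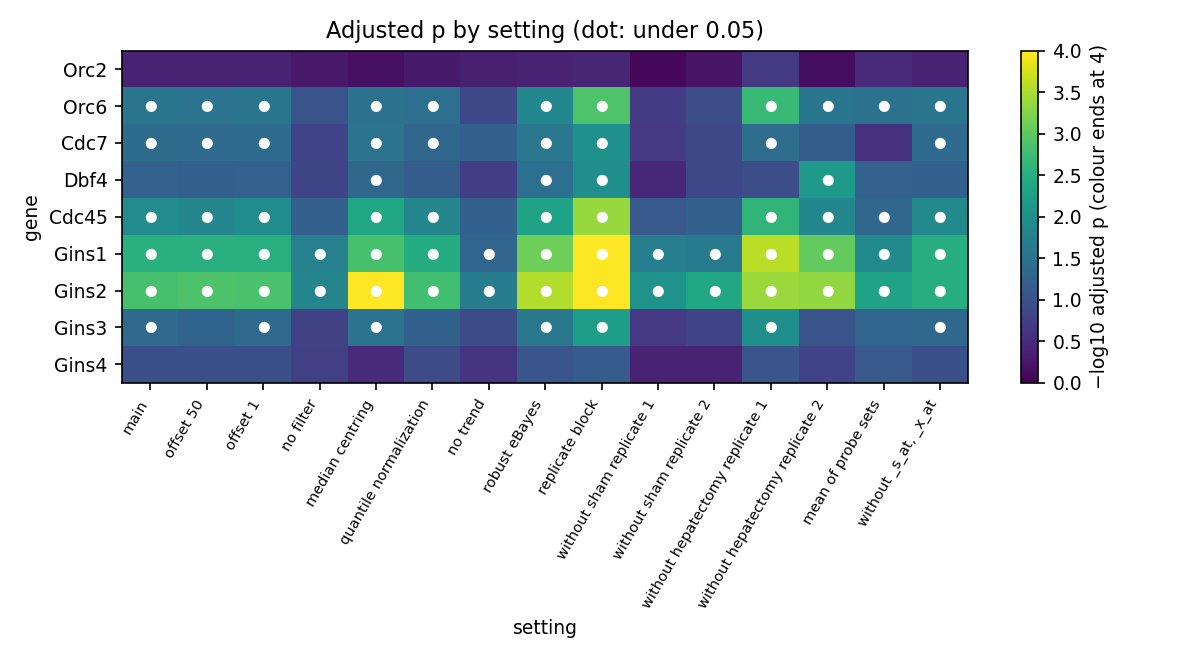
Adjusted p of the 9 tested genes (rows) under the main fit and 14 alternatives (columns), as −log10 in colour; a white dot marks a value under 0.05. The rows of Gins1 and Gins2 carry a dot in every column, and those of Orc2 and Gins4 carry none.

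The wider list of 50 other genes that act at origins held 48 measured genes, all tested. Of these, 24 were called higher and none lower, against 3.57% and 1.09% of all genes tested. Their median log2 difference was 1.48, against 0.02 over all genes. Of the 24, 2 (Cdc6 and Clspn) passed the filter only through the hepatectomy arrays. Without sham replicate 1 the count was 14. Cdc6, which helps the origin recognition complex load the Mcm ring, read 8.05 and 19.1 after sham surgery and 431 and 612 after hepatectomy. Cdt1, its partner in loading, read 230 and 523 against 2187 and 2515 (2.73 ± 0.34, SE; adjusted p = 0.00524). All 6 Mcm2 to Mcm7 subunits were called, with values from 2.19 for Mcm7 to 4.71 for Mcm5.

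The factors that help Cdc45 and GINS onto the ring were called in part. Topbp1, a scaffold for origin firing, rose by 2.15 ± 0.21 (SE; adjusted p = 0.00188), from 202 and 237 in the sham arrays to 1067 and 938. Recql4, a helicase needed for firing, differed by 1.80 ± 0.37 (adjusted p = 0.0428). That call went on leaving out sham replicate 1 (adjusted p = 0.255), sham replicate 2 (0.116) or hepatectomy replicate 2 (0.0765). Ticrr, the partner of Topbp1, was not called (0.45 ± 0.41, adjusted p = 0.667), and its signals of 29.4 and 23.0 against 49.9 and 29.7 lay near the control level. Another tested Ticrr probe set, 1435497_at, read 20.5 and 8.42 against 53.9 and 70.3, with no overlap, and was not called either (1.66 ± 0.44, adjusted p = 0.0931). It passed the filter only through its high hepatectomy signals. Gmnn, the inhibitor of Cdt1, was not called either (0.42 ± 0.17, adjusted p = 0.282).

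Other called genes of the list with the smallest adjusted p work at the fork or in control of loading. Dtl, which targets Cdt1 for destruction, rose by 4.16 ± 0.24 (SE; adjusted p = 0.000547), from 44.9 and 46.7 to 895 and 1034. Prim1, the primase catalytic subunit, had a value of 2.88, Pole, the leading strand polymerase, 3.23, Ccna2, the S phase cyclin, 3.44, and Clspn, a checkpoint mediator at the fork, 3.64. Mcm10, which acts after GINS to start unwinding, had a difference below 0 and was not called. Its representative probe set read 3736 and 2905 after sham surgery and 1197 and 2235 after hepatectomy, with no overlap (-1.01 ± 0.28, adjusted p = 0.108). Without hepatectomy replicate 2 the value was -1.45. Without hepatectomy replicate 1, the array with adrenal and the most fat transcripts, it was -0.56. One more Mcm10 probe set, a dim one, read 11.2 and 1.79 against 27.9 and 28.2, the opposite order.

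**Figure D5:**
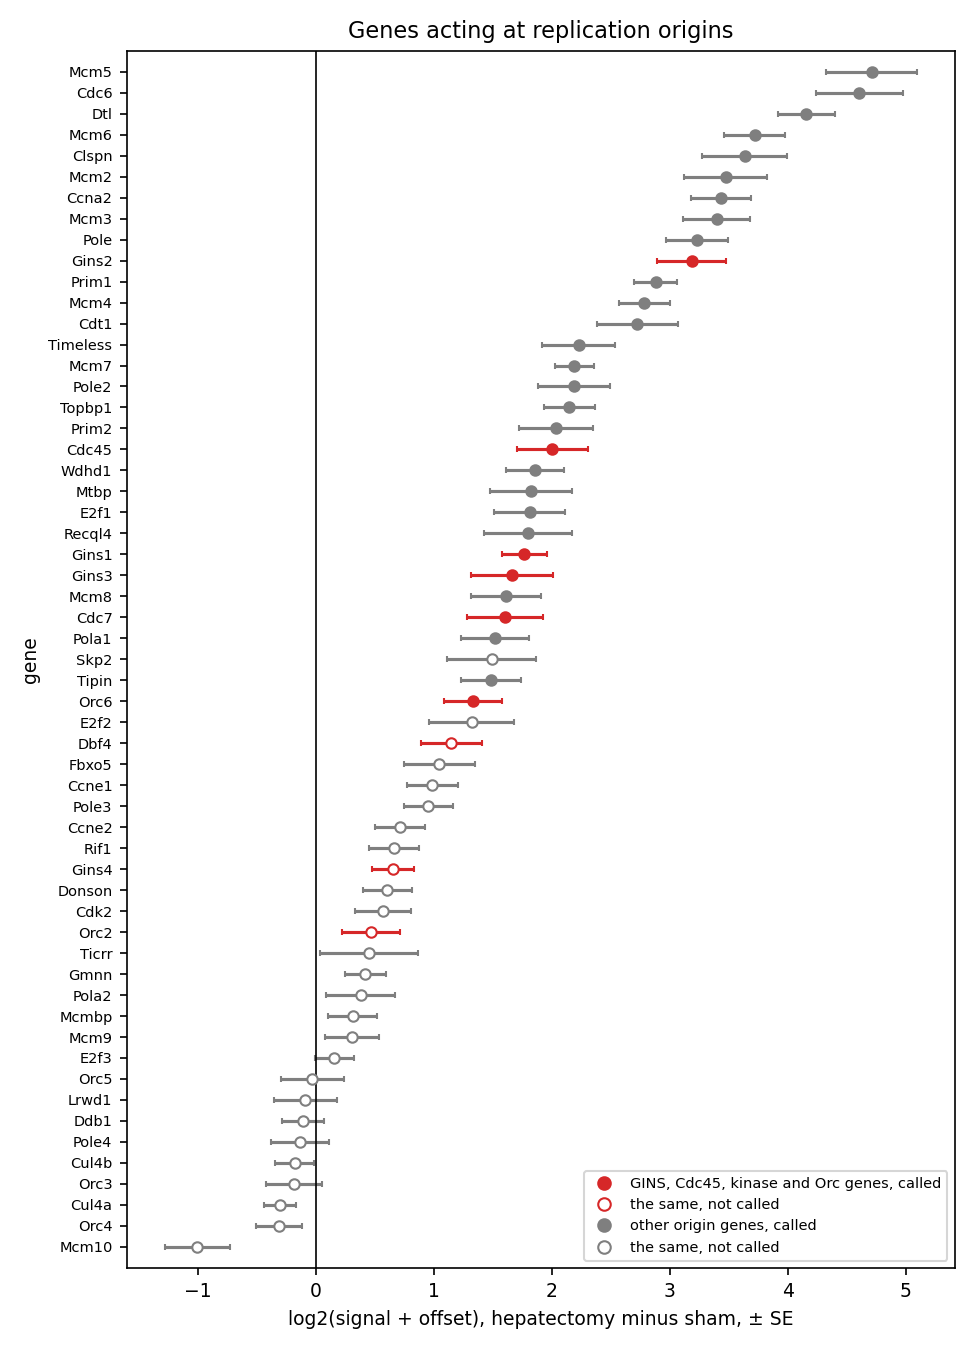
Difference between hepatectomy and sham for the 9 tested genes (red) and 48 other origin genes (grey), on the log2(signal + offset) scale with bars of 1 standard error; filled points were called. Gins2 at 3.18 lies among the Mcm genes near the top, Orc2 at 0.47 in the lower part of the plot, and Orc3, Orc4 and Orc5 below 0.

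Averaged over the 9 tested genes, the log2 values centred by gene were -0.83 and -0.70 after sham surgery and 0.62 and 0.92 after hepatectomy. Hepatectomy replicate 2 was the higher of its group at 13 of the 19 probe sets, and replicate 1 at the other 6, both of Dbf4 among them. The 5 genes outside both lists whose profile over the 4 arrays lay closest to that mean were Nyap1, Gdf10, Cldn1, Mdc1 and Mis18a, with root mean square differences between 0.05 and 0.09 on the log2 scale. For single genes, the nearest profile to Gins2 was that of Top2a (0.09), to Cdc45 that of Atad5 (0.11), to Gins3 that of Rfc3 (0.06) and to Gins1 that of Wnt9b (0.06). For the other 5 it was Cyba for Gins4 (0.022), Wbscr25 for Orc2 (0.018), Zbp1 for Dbf4 (0.037), Myl9 for Orc6 (0.064) and Nyap1 for Cdc7 (0.064). With 4 arrays many profiles lie this close, and the likeness is a description.

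Markers of the tissue and of other cell types were read beside these values. The 5 measured hepatocyte markers of 6 summed to 86778 and 75168 in the sham arrays and to 77238 and 74221 after hepatectomy. The 7 measured lymphocyte markers of 8 summed to 544 and 495 against 253 and 253, with none called and with overlapping groups for Ighm. Of 5 neutrophil markers 2 were called higher (S100a8 and S100a9) and sums were 435 and 351 against 9831 and 3527, while Ngp, Ltf and Camp lay under the bacterial control level on every array. The 6 stellate cell and fibroblast markers summed to 4177 and 5604 against 9080 and 7743, with 3 called higher (Col1a1, Col3a1 and Acta2). Lrat and Reln went the other way: Lrat read 1010 and 1257 against 482 and 919, and Reln 1807 and 2111 against 1200 and 1672. Des was higher on both hepatectomy arrays, and Lrat, Reln and Des were not called. The 6 measured macrophage markers of 7 summed to 12585 and 12818 against 12948 and 11236, with 1 called higher and 1 lower. Sums were 3301 and 2607 against 1122 and 1810 for 5 erythroid precursor markers (1 called lower), 2644 and 2726 against 2196 and 2272 for 5 endothelial markers, and 457 and 526 against 1249 and 737 for 4 cholangiocyte markers. Whether these cells contributed to the rise of the 10 genes was not tested.

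Hepatectomy replicate 1 also carried adrenal transcripts and had the highest sum of fat markers. Replicate 2 was not free of fat transcripts: Adipoq read 56.3 there, against 4.02 and 6.29 in the sham arrays, and Lep 22.6 against 2.89 and 1.97. Retn, at 13.8 against 13.0 and 19.1, was not higher there. The 5 measured adrenal cortex markers of 6 summed to 19041 in hepatectomy replicate 1, against 203 in hepatectomy replicate 2 and 202 and 175 in the sham arrays. In the same order, 3 fat markers of 5 summed to 881 against 92.7, 19.9 and 27.3. At the representative probe sets of the 6 called genes, hepatectomy replicate 1 read lower than replicate 2. Leaving replicate 1 out therefore had to raise their log2 differences. They became 3.23 for Gins2, 2.29 for Cdc45, 2.03 for Gins3, 1.93 for Gins1, 1.74 for Cdc7 and 1.63 for Orc6. For Dbf4, where replicate 1 was the higher, the value fell from 1.15 to 0.88. Whether the adrenal and fat transcripts bear on these values was not tested.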

How the data were processed

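The authors deposited 1 intensity per probe set and array on a linear scale; the submitters' processing notes name GCOS 1.4. The sources used here give no settings of it, detection calls or scan dates, and no batch was tested. The mean after trimming 2% at each end was 500.0 on all 4 arrays. Probe sets numbered 45101, of which 64 controls were left out; 34945 of the rest named 1 gene. Signals were turned to log2 after adding 8.57, the 20th percentile of all values, so differences of dim genes are understated. Probe sets with a mean log2 under the 40th percentile (5.09) were left out.

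The test was limma 3.58.1 (lmFit, eBayes) run in R 4.3.3, two-sided, with a mean-variance trend and 2 residual degrees of freedom, and Benjamini-Hochberg adjustment over 27022 probe sets. The code was tested on simulated data. A gene is represented by its tested probe set with the highest mean. As a sign of RNA quality, control probe sets at both ends of beta-actin gave 3' over 5' ratios from 2.02 to 2.75, and those of Gapdh from 1.45 to 1.73. Intensities are means ± SD. The bound on Orc1 used the bacterial control level, chosen after its values were seen. Members, lists, motifs, tests and alternatives were chosen with earlier results of these data known. Named genes are all members, the called origin genes with the smallest adjusted p (up to 12), 10 set origin genes, and the nearest profiles.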

Additional observations from a re-analysis of the deposited data

How the results depend on the processing

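The number of arrays limits precision: the median standard error of a tested probe set was 0.27 on the log2 scale. With no filter, 308 probe sets across the array were called, and 3 member probe sets of 2 genes. With no mean-variance trend these were 258, 3 and 2, and the origin list had 15 called genes. The cause was not tested. Leaving out 1 array in turn gave 341 to 2012 probe sets across the array, 3 to 7 member probe sets, 2 to 6 member genes and 14 to 26 origin genes. Of 126 member gene values under alternatives, 22 lost a call, 4 gained one (all Dbf4) and 0 changed sign. Only quantile normalization, median centring and the mean of probe sets could have changed a sign. The filter, trend, robust eBayes and block settings cannot. The others could not because the groups did not overlap at the probe sets used. Offsets of 1 and 50, quantile normalization, median centring, robust eBayes, the mean of probe sets and leaving out probe sets ending in _s_at or _x_at gave 4 to 7 member genes. After median centring the median of all genes moved from 0.02 to -0.06. Groups share replicate numbers. Replicates 1 and 2 deviated together only weakly (r = 0.10 over probe sets, as a hint), and with 2 pairs the numbers do not show pairing. With the replicate number as a block, 1943 probe sets, 8 member probe sets and 7 member genes were called, Dbf4 being the added gene (adjusted p = 0.0101), and Mcm10 was called lower (0.00876).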
